A study of Homo sapiens with 24 samples.

Results

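Nuclear arginine tRNAs were followed in HEK293T, a line of human embryonic kidney cells, after knockout of a dihydrouridine synthase (DUS1L, DUS2L or DUS3L). The members were all rows named for a nuclear arginine tRNA gene, 20 of 286 isodecoder rows, and the matching anticodon families Arg-ACG, Arg-CCG, Arg-CCT, Arg-TCG and Arg-TCT, 5 of 74 family rows. They were chosen by name and not by a measured value, though earlier results of these data were known at the time. The other nuclear tRNAs made up 241 isodecoder rows and 44 family rows. The groups were DUS1L knockout clones 1-9 and 2-4, DUS2L knockout clones 1-8 and 2-1, DUS3L knockout clones 1-5 and 2-8, and a pair of wild-type sets. Each group had 3 libraries, 24 in all. Each knockout clone is a single cell line, and none had a drug treatment. The deposited comparisons call the clones #1 and #2, and the labels do not tie these names to the clone numbers.

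Dihydrouridine is made from uridine by reducing the ring, which leaves the base unable to stack well and the RNA more flexible. DUS1L is known to act on positions 16 and 17 and DUS2L on position 20 of the D loop, and DUS3L on position 47 of the variable loop. Arginine has more codons than most amino acids, and its tRNAs divide them by anticodon. Arg-ACG, whose first anticodon base is edited to inosine, reads CGT, CGC and CGA codons, Arg-TCG reads CGA, Arg-CCG reads CGG, Arg-CCT reads AGG and Arg-TCT reads AGA. Isodecoders are tRNAs that share an anticodon and differ elsewhere in sequence.

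The gene sequences of the most abundant isodecoder of 3 families are shown to give the bases at the positions on which these enzymes act. Capitals mark the anticodon and the T bases (U in the RNA) at positions 16, 20a and 47.
Arg-ACG-2-1: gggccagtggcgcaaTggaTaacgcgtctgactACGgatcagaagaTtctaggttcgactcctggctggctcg
Arg-TCG-1-1: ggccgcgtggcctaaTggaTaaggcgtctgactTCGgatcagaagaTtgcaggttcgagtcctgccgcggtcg
Arg-TCT-1-1: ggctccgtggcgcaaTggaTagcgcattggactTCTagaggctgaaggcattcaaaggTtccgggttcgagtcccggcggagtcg
On hg38 they lie at chr3:45688999-45689071 on the minus strand, within an exon of LIMD1-AS1 and of SACM1L, at chr15:89335073-89335145 on the plus strand, within an exon of the antisense RNA AC124068.2, and at chr1:93847573-93847657 on the plus strand, within an exon of the non-coding AL049796.1. The first was read from a RefSeq promoter window (GRCh38.p14) and the others from GENCODE 29 transcripts. The remaining isodecoders, among them all of Arg-CCG and Arg-CCT, could not be read from the reference sequences at hand. The planned grouping of isodecoders by these bases was therefore not made, and the 3 shown do not stand for the whole set. All 3 have T at position 16 and at position 47, no base at position 17, and A at position 20 followed by T at 20a. Position 20a is not among the sites known for these 3 enzymes. Arg-TCT-1-1 carries an intron of 12 bases after the anticodon, and each of the 3 has 73 bases without introns. Over those 73 bases Arg-ACG-2-1 and Arg-TCG-1-1 are identical at 59, and Arg-TCT-1-1 is identical to each at 52.

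RefSeq placed 18 of the 20 isodecoders on 8 chromosomes, with 6 genes on chromosome 6 and 5 on chromosome 17. Of these genes, 5 lie within an intron of another gene, 4 overlap an exon and 9 overlap no annotated gene. An intron of KCTD2 on chromosome 17 holds Arg-CCT-1-1 (75033906 to 75033978), Arg-CCT-2-1 (75034431 to 75034503) and Arg-TCG-3-1 (75035113 to 75035185), with 452 and 609 bases between them. Arg-CCT-5-1 and Arg-TCG-6-1 had no entry.

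The authors deposited, for each row, the mean of normalised counts over the compared libraries and the log2 fold change of each clone over wild type with its p-value. Levels of each group were recovered from these, so they are group means without an SD. Errors are standard errors (SE) that follow from each fold change and its p-value. A row passed at a Benjamini-Hochberg adjusted p under 0.05, adjusted over every row with a p-value. Separate cultures behind the 3 libraries of a group are not stated in the labels, and the p-values measure a spread that may be technical. Recovered wild-type levels of the DUS2L and DUS1L tables kept a nearly fixed ratio, with an SD of 0.0191 (log2) over 184 isodecoder rows, against 1.54 between the DUS3L and DUS1L tables. The DUS1L and DUS2L comparisons thus share their wild-type libraries, and the DUS3L comparison has others. The tables hold tRNA alone, so neither the loss of the DUS transcripts nor markers of the cell line could be read from them.

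Arginine tRNAs held between 8.06% and 33.4% of the nuclear tRNA counts of a group. They summed to 254485 normalised counts in DUS1L clone #1, 276831 in clone #2 and 348984 in wild type, which are 26.0%, 33.4% and 31.0% of the group's nuclear counts. In the DUS2L table the sums were 260607 in clone #1, 463654 in clone #2 and 790253 in wild type, or 16.3%, 18.5% and 31.0%. In the DUS3L table they were 74271 in clone #1, 78340 in clone #2 and 69994 in wild type, or 8.06%, 8.40% and 14.8%. The arginine share was thus lower in both clones than in wild type in the DUS2L and DUS3L tables and on either side of wild type in the DUS1L table. These shares carry no test, since no values per library were used.

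Gly-GCC, a glycine family chosen after its values were seen, took 28.2% and 32.6% of nuclear counts in DUS2L clones #1 and #2, against 9.16% in their wild type. In the DUS3L table it took 73.9% and 67.8% in the clones, against 55.6% in wild type. Without Gly-GCC, the arginine share was 22.7% and 27.5% in the DUS2L clones, against 34.1% in wild type, and 30.9% and 26.1% in the DUS3L clones, against 33.4% in wild type. In DUS1L clones #1 and #2 it was then 29.01% and 36.2%, against 34.1% in wild type. As a ratio to wild type, the arginine share was nearer to 1 without Gly-GCC for both DUS2L clones and both DUS3L clones. Leaving out a family that took a larger share in these clones must raise their remaining shares relative to wild type. The direction of this move was thus fixed by the choice of Gly-GCC and is no result about arginine tRNAs. A lower count of a tRNA and a larger count of other tRNAs cannot be told apart in such shares.

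**Figure D1:**
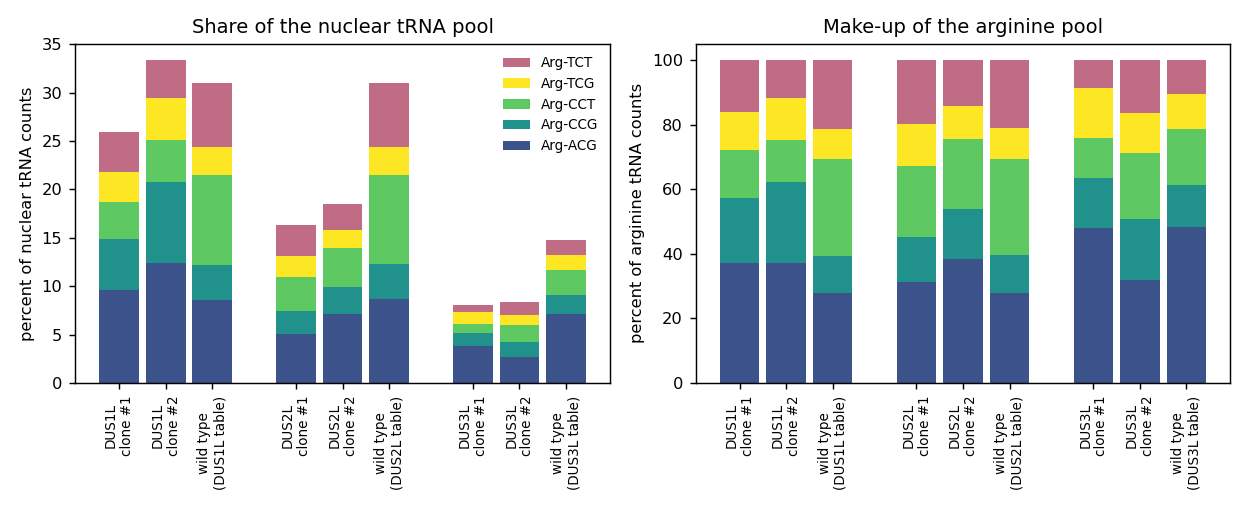
Arginine families as a percent of nuclear tRNA counts (left) and of arginine counts (right), in clones #1 and #2 and in the wild type of each table; bars are recovered group means with no error. The left bars total 16.3% and 18.5% in DUS2L clones against 31.0% in wild type, and the right bars show Arg-CCT at 14.8% and 13.1% in DUS1L clones against 30.02% in wild type.

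In the DUS1L knockouts no arginine family passed the test. The shares of the families in the arginine pool are given as recovered values without a test. Arg-CCT, the reader of AGG, held 14.8% and 13.1% of arginine counts in clones #1 and #2, against 30.02% in wild type. Arg-TCT, the reader of AGA, held 16.2% and 11.6% in the clones, against 21.2% in wild type. Arg-CCG held 20.3% and 25.04% in the clones, against 11.5% in wild type, and Arg-ACG 37.0% and 37.2%, against 27.8%. Arg-TCG, the smallest family in wild type, held 11.7% and 13.1% in the clones, against 9.40% in wild type.

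By level, Arg-CCT stood at 37652 and 36184 normalised counts in DUS1L clones #1 and #2, against 104763 in wild type. The authors' deposited table gave it log2 fold changes of -1.48 ± 0.60 and -1.53 ± 0.60, with adjusted p = 0.164 and 0.188. Arg-TCT stood at 41120 and 32152 in the clones, against 73991 in wild type, which the authors' deposited table put at -0.85 ± 0.51 and -1.20 ± 0.51. Arg-CCG stood at 51657 and 69324 in the clones, against 40294 in wild type, with log2 fold changes of 0.36 ± 0.49 and 0.78 ± 0.49 in the authors' deposited table. Arg-ACG was at 94190 and 102971 in the clones, against 97129 in wild type, and Arg-TCG at 29868 and 36199, against 32805. The authors' deposited table gave -0.04 and 0.08 for Arg-ACG and -0.14 and 0.14 for Arg-TCG. By the authors' test, 0 of 5 families passed in either clone, where 5.71% of all families passed in clone #1 and 0% in clone #2. Unadjusted p-values under 0.05 were held by 1 arginine family in clone #1 and 2 in clone #2. Of 40 other nuclear families tested, 4 rose in clone #1 and 0 passed in clone #2.

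Single isodecoders did pass in the DUS1L knockouts. Of 20 tested, 2 rose and 4 fell in clone #1, where 15.6% of all isodecoder rows rose and 5.09% fell. In clone #2 again 2 rose and 4 fell, where 2.55% of all rows rose and 5.82% fell. The median arginine isodecoder was at -0.32 in clone #1 and -0.73 in clone #2, beside 0.30 and -0.13 over all rows tested. Among 230 other nuclear isodecoders tested, 41 rose and 10 fell in clone #1, and 5 rose and 12 fell in clone #2. Centred on the median nuclear isodecoder, which lay at 0.20 and -0.19, 1 rose and 5 fell in clone #1, and 2 rose and 3 fell in clone #2. The share of all rows that passed after centring was not computed, so these counts are not compared with other rows.

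Of the 4 isodecoders that fell in each DUS1L clone, 3 were AGA or AGG readers. Arg-CCT and Arg-TCT together have as many isodecoder rows as the 3 other arginine families together. With so few calls, no concentration of falls in these readers is read from this. Arg-TCT-4-1, whose mouse counterpart is known as a tRNA of the central nervous system, had 229 and 211 normalised counts in clones #1 and #2, against 1595 in wild type. Its log2 fold changes in the authors' deposited table were -2.80 ± 0.74 (adjusted p = 0.00163) and -2.92 ± 0.74 (adjusted p = 0.00257). It lies on chromosome 1 (159141611 to 159141684) in an intron of AIM2 and spans 74 bases, where the other Arg-TCT genes span 85 to 88. Arg-TCT-3-2 had 7932 and 4475 in the clones, against 16946 in wild type, with -1.92 ± 0.50 in clone #2 of the authors' deposited table, which passed (adjusted p = 0.00345). Its value in clone #1, -1.10 ± 0.50 in the authors' deposited table, did not pass. Arg-TCT-2-1 had 2162 and 2132 in the clones, against 6058 in wild type. It passed in clone #1, at -1.49 ± 0.53 in the authors' deposited table (adjusted p = 0.0284), and in clone #2 its adjusted p was 0.0523.

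Among Arg-CCT isodecoders, Arg-CCT-2-1 had 3302 and 3868 normalised counts in DUS1L clones #1 and #2, against 15440 in wild type. The authors' deposited table placed it at -2.23 ± 0.67 (adjusted p = 0.00663) and -1.997 ± 0.671 (adjusted p = 0.0366). After centring, the call ended in clone #2. Arg-CCT-4-1, which made up 71.3% and 68.8% of the family in the clones and 72.9% in wild type, had 26830 and 24906, against 76393 in wild type. Its values of -1.51 ± 0.64 and -1.62 ± 0.64 in the authors' deposited table missed the threshold, with adjusted p = 0.0729 and 0.0799. The first of these passed after centring. Arg-CCT-3-1, at 3854 and 3253 against 4595 in wild type, was nearer to its wild-type level than these.

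The CGN readers moved both ways in the DUS1L knockouts. Arg-CCG-1-1 (chromosome 6, 28742952 to 28743024, in no annotated gene) had 3821 and 4683 normalised counts in clones #1 and #2, against 1295 in wild type. In the authors' deposited table it rose by 1.56 ± 0.47 (adjusted p = 0.00619) and 1.85 ± 0.47 (adjusted p = 0.00257). It is the smaller of 2 Arg-CCG isodecoders, with 7.40% and 6.76% of the family in the clones and 3.21% in wild type. Its partner Arg-CCG-2-1 had 47836 and 64641 in the clones, against 38999 in wild type, and did not pass. Arg-TCG-4-1 (chromosome 6, 26299677 to 26299749) had 204 and 314 in the clones, against 1152 in wild type, or -2.50 ± 0.59 and -1.87 ± 0.59 in the authors' deposited table (adjusted p = 0.000401 and 0.0238). Arg-TCG-3-1 had 2428 and 4130 in the clones, against 1553 in wild type, and rose in clone #2 by 1.41 ± 0.47 in the authors' deposited table (adjusted p = 0.0348). Arg-TCG-1-1, the most abundant Arg-TCG isodecoder, had 18969 and 23604 in the clones, against 21119 in wild type. It did not pass, nor did Arg-TCG-2-1, Arg-TCG-5-1, Arg-ACG-1-2 or Arg-ACG-2-1. Of these, Arg-ACG-1-2 had 33052 and 45366 in the clones, against 38229 in wild type, and Arg-ACG-2-1 had 61139 and 57606, against 58900.

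Arg-TCT-5-1, a low row, had 34.7 and 29.9 normalised counts in DUS1L clones #1 and #2, against 8.66 in wild type. The authors' deposited table put it at 2.00 ± 0.78 in clone #1 (adjusted p = 0.048), a call that ended after centring, and at 1.79 ± 0.77 in clone #2, which did not pass. Near-identical isodecoders share reads, and how such reads were assigned is not given in the sources used here, so single isodecoder values are less certain than family sums.

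**Figure D2:**
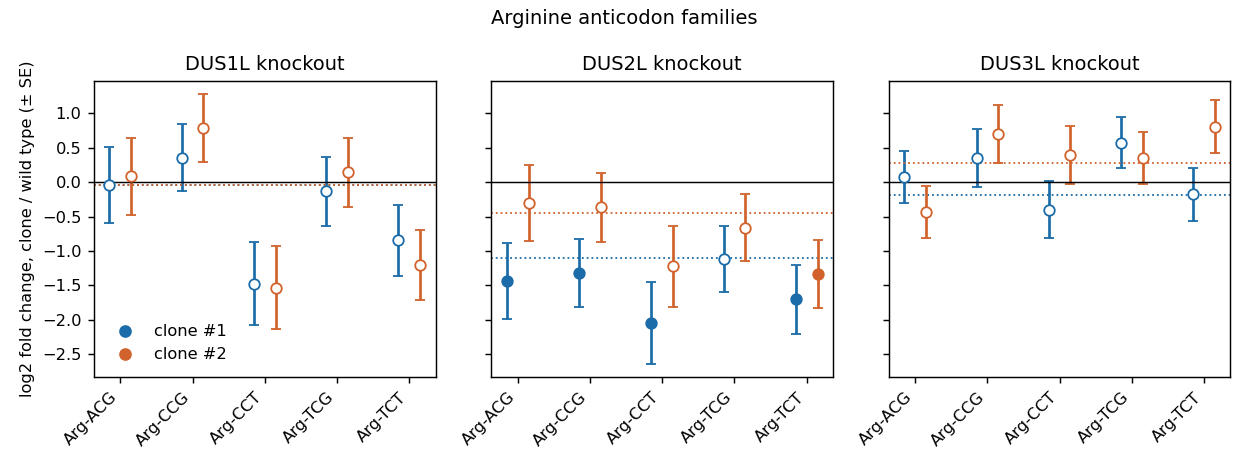
Log2 fold change of each arginine family, clone over wild type, in the 3 knockouts; points are the authors' values, bars the recovered SE, filled points passed at an adjusted p under 0.05, and dotted lines mark the median nuclear family of each clone. Filled points appear in the DUS2L panel alone, 4 for clone #1 and 1 for clone #2.

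In the DUS2L knockouts the 5 arginine families lay below wild type in both clones, except that Arg-ACG and Arg-CCG of clone #2 lay above it after centring or with spike-ins as reference. In clone #1, 4 of the 5 passed. Of all families, 26.8% passed as lower in clone #1 and 25.4% in clone #2, where 1 arginine family passed. Arg-CCT had 57000 and 101050 normalised counts in clones #1 and #2, against 236038 in wild type. The authors' deposited table gave it -2.05 ± 0.59 (adjusted p = 0.00369) and -1.22 ± 0.59 (adjusted p = 0.0799). Arg-TCT had 51299 and 66358 in the clones, against 167399 in wild type. It passed in each clone, at -1.71 ± 0.50 (adjusted p = 0.00387) and -1.33 ± 0.50 (adjusted p = 0.0245) in the authors' deposited table.

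Arg-ACG had 81287 and 178259 normalised counts in DUS2L clones #1 and #2, against 220845 in wild type. In clone #1 it stood at -1.44 ± 0.55 in the authors' deposited table (adjusted p = 0.0328), and in clone #2 at -0.31 ± 0.55, which did not pass. Arg-CCG had 36656 and 70890 in the clones, against 91470 in wild type, and passed in clone #1, at -1.32 ± 0.50 in the authors' deposited table (adjusted p = 0.032). Arg-TCG had 34365 and 47098 in the clones, against 74500 in wild type. It passed in neither, with adjusted p = 0.055 and 0.264.

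The medians of the DUS2L table also lay below wild type, though single families moved both ways. The median of the nuclear families was -1.10 (clone #1) and -0.45 (clone #2). The added E. coli tRNAs averaged -0.27 and -0.46. The median arginine family was at -1.44 and -0.66, beside -0.81 and -0.44 over all families tested. Centred on the median nuclear family, 0 arginine families passed in either clone. With these spike-ins as reference, 2 passed in clone #1 and 0 in clone #2. Arg-ACG of clone #2 then stood at 0.14 after centring and 0.16 with the spike-ins, and Arg-CCG of clone #2 at 0.08 and 0.10. The share of all families that passed under these settings was not computed. The lost calls are thus not read as particular to arginine families. By the authors' test, 4 of the other nuclear families rose and 11 fell in clone #1, and 10 rose and 10 fell in clone #2, of 41 tested.

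As shares of the arginine pool, Arg-CCT held 21.9% and 21.8% in DUS2L clones #1 and #2, against 29.9% in wild type. Arg-ACG held 31.2% and 38.4% in the clones, against 27.9% in wild type, and Arg-CCG 14.1% and 15.3%, against 11.6%. Arg-TCT held 19.7% and 14.3% in the clones, against 21.2% in wild type, and Arg-TCG 13.2% and 10.2%, against 9.43%. Arg-CCT and Arg-TCT were therefore the families with smaller shares in both clones than in wild type.

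At the isodecoder level, 2 arginine tRNAs rose and 15 fell in DUS2L clone #1, of 19 tested, where 16.7% of all rows rose and 37.3% fell. In clone #2, 3 rose and 7 fell, where 21.4% of all rows rose and 30.8% fell. Centred on the median nuclear isodecoder, which lay at -1.02 and -0.55, 3 rose and 2 fell in clone #1 and 3 rose and 3 fell in clone #2. With the spike-ins as reference, 2 rose and 11 fell in clone #1 and 3 rose and 3 fell in clone #2. The share of all rows that passed under these settings was not computed. Whether arginine isodecoders lost more calls than other rows was thus not tested. By the authors' test, 42 of 232 other nuclear isodecoders tested rose and 82 fell in clone #1, and 54 rose and 70 fell in clone #2. The median arginine isodecoder tested was at -1.53 and -0.64, beside -0.90 and -0.47 over all rows tested.

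Of the isodecoders that rose in the DUS2L knockouts, Arg-TCG-6-1 and Arg-TCT-5-1 were scarce in their wild type and Arg-TCG-3-1 was not. Arg-TCG-6-1 had 196 and 262 normalised counts in clones #1 and #2, against 9.91 in wild type. That is 19.8-fold and 26.4-fold, or 4.31 ± 0.67 (adjusted p = 2.12e-09) and 4.72 ± 0.67 (adjusted p = 2.13e-11) in the authors' deposited table. Arg-TCT-5-1 (chromosome 6, 27562184 to 27562270, in no annotated gene) had 287 and 359 in the clones, against 20.3 in wild type. The authors' deposited table put it at 3.82 ± 0.50 (adjusted p = 6.96e-13) and 4.14 ± 0.50 (adjusted p = 3.16e-15). Both isodecoders are minor, with at most 0.571% of the Arg-TCG family and 0.560% of the Arg-TCT family in these clones. Arg-TCG-3-1 had 4906 and 6564 in the clones, against 3559 in wild type. It rose in clone #2, by 0.88 ± 0.34 in the authors' deposited table (adjusted p = 0.0199), while its 0.46 ± 0.34 in clone #1 passed only after centring, at 1.49 (adjusted p = 5.88e-05).

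Of the isodecoders that fell in the DUS2L knockouts, Arg-TCG-4-1 had 429 and 409 normalised counts in clones #1 and #2, against 2602 in wild type. It stood at -2.60 ± 0.57 (adjusted p = 2.91e-05) and -2.67 ± 0.57 (adjusted p = 1.44e-05) in the authors' deposited table. Arg-TCT-3-2 had 7548 and 9405 in the clones, against 38425 in wild type, at -2.35 ± 0.50 (adjusted p = 1.7e-05) and -2.03 ± 0.50 (adjusted p = 0.000218) in the authors' deposited table. Arg-TCT-4-1 had 488 and 784 in the clones, against 3577 in wild type. The authors' deposited table held its log2 fold changes, -2.87 and -2.19, without a p-value, so it could not be called. Arg-TCT-2-1 had 3408 and 3489 in the clones, against 13712 in wild type, at -2.01 ± 0.53 and -1.97 ± 0.53 in the authors' deposited table (adjusted p = 0.000543 and 0.00068). Arg-TCG-2-1 had 3027 and 3908 in the clones, against 8656 in wild type, and passed in each clone (adjusted p = 0.00184 and 0.0208).

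Other isodecoders passed as lower in DUS2L clone #1 and not in clone #2. Arg-TCG-5-1 had 3373 normalised counts in clone #1 and 5221 in clone #2, against 11749 in wild type (adjusted p = 0.00302 and 0.0605). Arg-CCT-3-1 had 2852 and 7243 in the clones, against 10546 in wild type (adjusted p = 0.000418 and 0.366). Arg-ACG-1-2 had 30144 and 58793 in the clones, against 86790 in wild type (adjusted p = 0.0162 and 0.416). The differences between the clones did not pass for these 3 isodecoders, by a test whose SE is too large because the clones share their wild type. Arg-CCT-5-1, at 26.2 and 22.7 in the clones against 34.2 in wild type, passed in neither. After centring, Arg-TCG-4-1, Arg-TCT-3-2 and Arg-TCT-2-1 were the arginine isodecoders that fell in clone #2, and Arg-TCG-4-1 and Arg-TCT-3-2 those that fell in clone #1.

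The most abundant isodecoder of each family fell in DUS2L clone #1. Arg-CCT-4-1 had 40828 normalised counts there and 67719 in clone #2, against 171890 in wild type. Arg-ACG-2-1 had 51143 and 119466 in the clones, against 134054 in wild type. Arg-TCT-1-1 had 39567 and 52321, against 111665 in wild type. Of these 5, Arg-TCT-1-1 passed in clone #2 as well, at -1.09 ± 0.48 in the authors' deposited table (adjusted p = 0.0424). Arg-CCG-2-1 had 35705 and 69545 in the clones, against 88506 in wild type, and Arg-TCG-1-1 had 22434 and 30735, against 47925. None of the 5 passed in either clone after centring, and none passed in clone #2 with the spike-ins as reference. Arg-CCG-1-1, which had risen in both DUS1L clones, had 951 and 1346 in DUS2L clones, against 2964 in wild type, at -1.64 ± 0.37 (adjusted p = 5.07e-05) and -1.14 ± 0.37 (adjusted p = 0.00577) in the authors' deposited table. These calls ended after centring in both clones.

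The recovered levels of the 3 genes within the KCTD2 intron lay on different sides of wild type in the DUS1L and DUS2L tables, though not every value passed. In DUS2L clones #1 and #2, Arg-CCT-1-1 had 5646 and 15364 normalised counts, against 18918 in wild type, and Arg-CCT-2-1 had 7648 and 10701, against 34650 in wild type. Arg-TCG-3-1, 609 bases from Arg-CCT-2-1, was above its wild-type level in both clones. Here Arg-CCT-2-1 passed in both clones, though not after centring, and Arg-TCG-3-1 passed in clone #2 and, in clone #1, only after centring. Arg-CCT-1-1 of clone #2 did not pass. It stood at 0.25 after centring and 0.16 with the spike-ins, on the same side as Arg-TCG-3-1. In DUS1L clones Arg-CCT-1-1 had 3654 and 4152, against 8320 in wild type, without passing, while the levels of Arg-CCT-2-1 were below and those of Arg-TCG-3-1 above wild type in both clones. Arg-TCG-3-1 did not pass in DUS1L clone #1. In the DUS3L table none of the 3 passed. Arg-CCT-2-1 and Arg-TCG-3-1 were there at -0.59 and 0.50 in clone #1 and at 0.11 and 0.45 in clone #2.

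**Figure D3:**
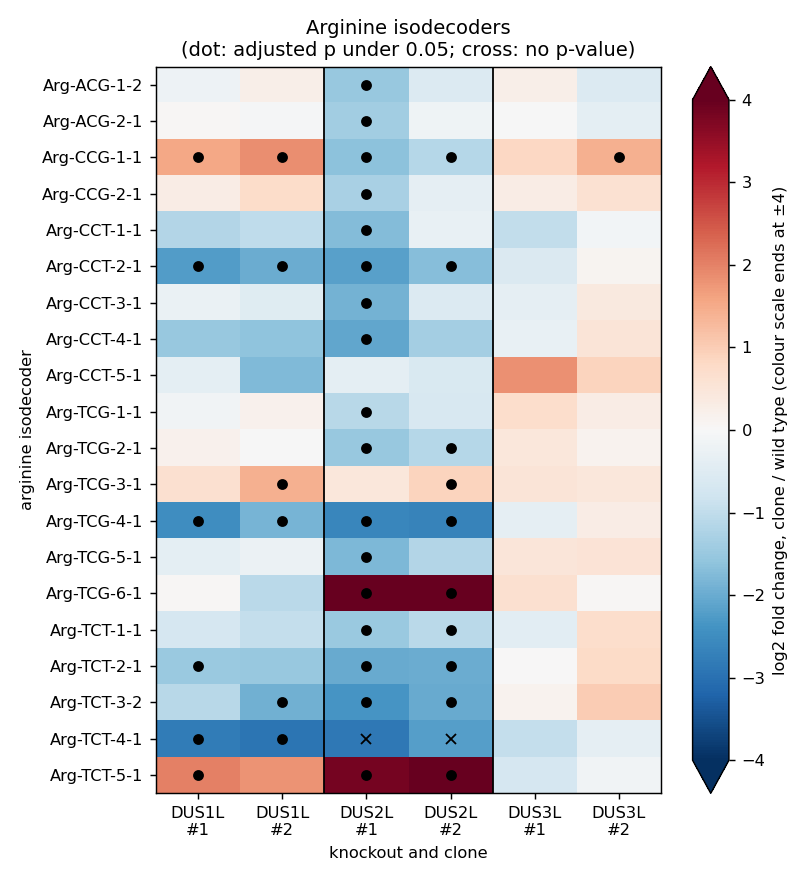
Log2 fold change, clone over wild type, of the 20 arginine isodecoders in the 6 clones; colours are the authors' values, dots mark an adjusted p under 0.05 and crosses rows without a p-value. DUS2L clone #1 holds more dots than any other clone, 17 of 19 tested, and in DUS3L the only dot is Arg-CCG-1-1 in clone #2.

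In the DUS3L knockouts 1 arginine isodecoder and no arginine family passed. No family passed in either clone by the authors' test, where 8.11% of all families passed in clone #1 and 5.41% in clone #2, and at an unadjusted p under 0.05 there were 0 and 1 arginine families. Arg-ACG had 35553 and 25017 normalised counts in clones #1 and #2, against 33766 in wild type. Arg-TCT had 6494 and 12826 in the clones, against 7338 in wild type, at -0.18 ± 0.38 and 0.81 ± 0.38 in the authors' deposited table. Arg-CCT had 9165 and 15936, against 12093 in wild type. Arg-CCT and Arg-TCT were thus below wild type in clone #1 and above it in clone #2, except that Arg-TCT of clone #1 stood at 0.01 after centring. Arg-CCG had 11618 and 14780 in the clones, against 9121 in wild type, and Arg-TCG had 11444 and 9780, against 7674. Of 44 other nuclear families tested, 2 rose and 4 fell in clone #1, and 4 rose and 0 fell in clone #2.

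As shares of the arginine pool, Arg-ACG was the largest family in the DUS3L table, with 47.9% and 31.9% in clones #1 and #2, against 48.2% in wild type. Arg-CCT held 12.3% and 20.3% in the clones, against 17.3% in wild type, and Arg-TCT 8.74% and 16.4%, against 10.5%. Arg-CCG held 15.6% and 18.9% in the clones, against 13.03% in wild type, and Arg-TCG 15.4% and 12.5%, against 10.96%. The smaller Arg-ACG share of clone #2 thus stood beside larger shares of the 4 other families than in wild type.

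Of 20 isodecoders, 0 passed in DUS3L clone #1 by the authors' test and 3 had an unadjusted p under 0.05, where 2.48% of all rows rose and 5.32% fell. In clone #2, 1 rose and 0 fell, where 10.6% of all rows rose and 1.06% fell. Of 237 other nuclear isodecoders tested, 7 rose and 15 fell in clone #1, and 29 rose and 3 fell in clone #2. The one that rose was Arg-CCG-1-1, with 1347 and 2006 normalised counts in clones #1 and #2, against 755 in wild type. The authors' deposited table gave it 0.84 ± 0.48 and 1.41 ± 0.48 (adjusted p = 0.319 and 0.0311). The call ended after centring on the median nuclear isodecoder, which lay at 0.22, and with the spike-ins as reference. As a share of nuclear counts Arg-CCG-1-1 was at 1462 and 2151 parts per 1000000 (ppm) in the clones, against 1599 in wild type. Arg-TCT-3-2 had 2466 and 4549 in the clones, against 2246 in wild type, and its 1.02 ± 0.41 in clone #2 of the authors' deposited table did not pass (adjusted p = 0.0969). Arg-CCT-5-1, a low row, had 41.7 and 21.4 in the clones, against 11.6 in wild type, with an adjusted p of 0.0672 in clone #1.

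Several isodecoders, chosen for their changes, stood far apart between the 2 recovered wild types. A wide spread between these wild types was not particular to arginine tRNAs. Among rows with a mean of at least 100, the log2 ratio of DUS3L to DUS1L wild-type levels had an SD of 1.54 over 184 isodecoder rows. It was 0.98 over the 17 arginine rows among them, which leave out Arg-TCG-6-1 and Arg-TCT-5-1. Shares of each group's own nuclear counts were used for the values below, because the tables were scaled separately. No test was made across tables. Arg-TCG-6-1 was at 123 and 105 ppm in DUS2L clones #1 and #2, against 3.89 in their wild type, and at 144 ppm in the wild type of the DUS3L table. Arg-TCT-5-1 was at 180 and 143 ppm in DUS2L clones, against 7.97 in their wild type, and the wild type of the DUS3L table was at 166. The DUS2L clones thus lay near the DUS3L wild type and far above their own.

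Arg-TCG-4-1 was at 269 and 163 ppm in DUS2L clones #1 and #2, against 1020 in their wild type, and at 430 in the wild type of the DUS3L table. Gly-GCC weighs on these shares, and as a percent of arginine counts Arg-TCG-4-1 was at 0.165% and 0.0881% in DUS2L clones, against 0.329% in their wild type, and at 0.290% in the wild type of the DUS3L table. On that scale the wild type of the DUS3L table was nearer to the wild type of the DUS2L clones than to the clones. Arg-TCT-4-1 was at 306 and 313 ppm in DUS2L clones, against 1403 in their wild type, and at 193 in the wild type of the DUS3L table. As a percent of arginine counts it was at 0.187% and 0.169% in DUS2L clones, against 0.453% in their wild type, and at 0.130% in the wild type of the DUS3L table. Arg-TCG-3-1, which rose in DUS2L clone #2, was at 3071 and 2619 ppm in DUS2L clones, against 1396 in their wild type, and at 2665 in the wild type of the DUS3L table. In DUS1L clones, compared with that same wild type as DUS2L, Arg-TCG-6-1 was at 4.66 and 2.50 ppm, against 3.89. Arg-TCT-4-1 was there at 234 and 255, against 1415 in wild type. Which wild-type set entered each table is not stated, and the part of the wild type in these differences was not tested.

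**Figure D4:**
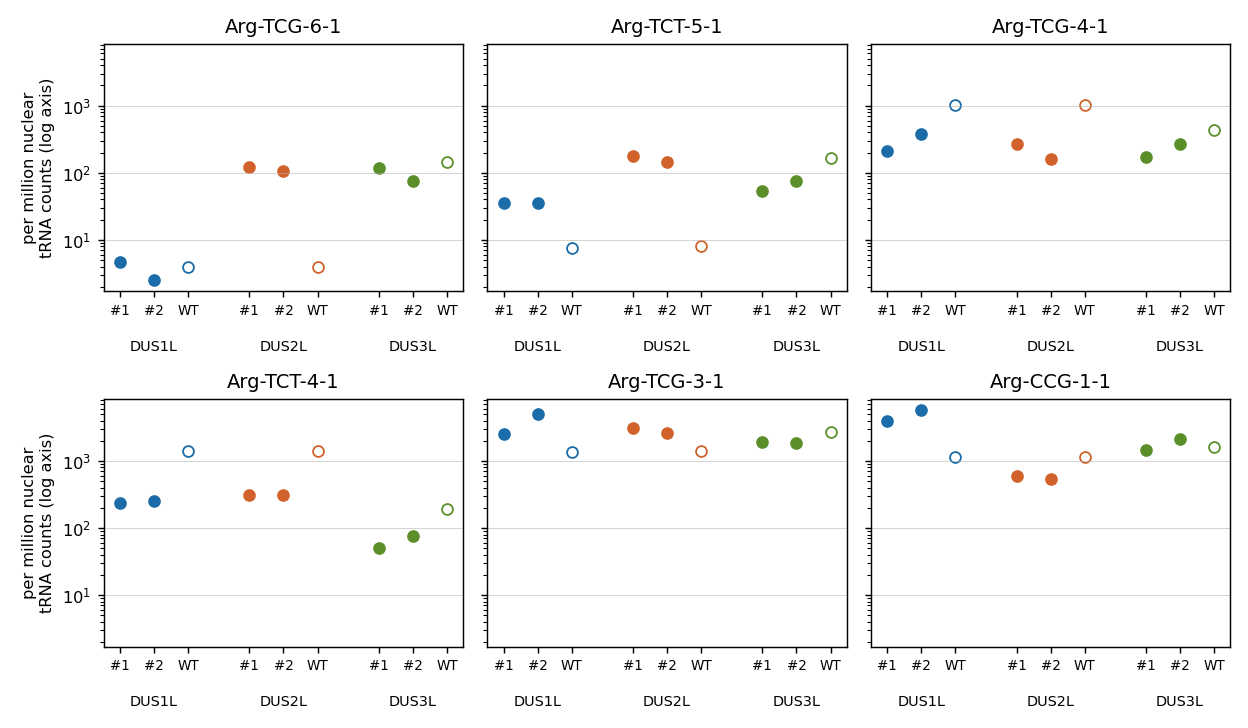
Arginine isodecoders chosen for their changes, in parts per 1000000 nuclear tRNA counts (log axis) in clones #1 and #2 (filled) and the wild type (WT, open) of the DUS1L, DUS2L and DUS3L tables; points are recovered group means without error. Arg-TCG-6-1 is at 123 and 105 in DUS2L clones against 3.89 in their wild type, while the wild type of the DUS3L table is at 144.

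No arginine row passed a test of the difference between the clones of a knockout. The difference of the fold changes was tested with the SEs taken as independent, although the clones share their wild type. That makes these SEs too large rather than too small, so the test can miss a difference. A value that did not pass therefore does not show that the clones were alike. In the DUS2L table, for example, Arg-CCT-3-1 differed by 1.34 ± 0.69, with an unadjusted p of 0.0509 by this test. None passed in any of the 6 tables, and none had an unadjusted p under 0.05. The lowest adjusted p was 0.531, for Arg-TCT-1-1 in the DUS3L table, where clone #2 exceeded clone #1 by 1.15 ± 0.64 on the log2 scale. In the DUS2L table clone #2 exceeded clone #1 in 18 of 20 isodecoders and 5 of 5 families. The median difference of DUS2L isodecoders was 0.47, beside 0.36 over all rows tested, and that of the families was 0.83, beside 0.27.

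Between families of the same clone, 60 differences of fold change were computed, and 0 passed after adjustment over the 60, while 7 had an unadjusted p under 0.05. The SEs were taken as independent, although the families come from the same libraries and wild type, so the errors and intervals hold only on that assumption. Of the 60, the lowest adjusted p was 0.156, for Arg-CCG minus Arg-CCT in DUS1L clone #2, at 2.32 ± 0.78 on the log2 scale with a 95% interval of 0.79 to 3.84. In DUS1L clone #1 the same difference was 1.83 ± 0.78, with an interval of 0.31 to 3.36. Arg-CCG minus Arg-TCT in DUS1L clone #2 was 1.99 ± 0.71, with an interval of 0.59 to 3.38.

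The families whose pattern lay closest to each arginine family were sought over the 6 clone comparisons among 44 nuclear families of other amino acids. Likeness was the mean absolute difference of log2 fold changes, a description that carries the shared wild type of the DUS1L and DUS2L tables. Arg-TCT was closest to Leu-TAG (0.21) and Ser-CGA (0.27), where its median over the 44 families was 0.90. Arg-ACG was closest to Ala-AGC (0.23) and Thr-CGT (0.42), with a median of 0.79. Arg-CCT was closest to Met-CAT (0.31) and Leu-TAG (0.36), with a median of 1.09. Arg-TCG was closest to Pro-TGG (0.32) and Cys-GCA (0.36), with a median of 0.74. Arg-CCG was closest to Asp-GTC (0.36) and Glu-CTC (0.46), with a median of 0.84. Leu-TAG was thus named for both Arg-CCT and Arg-TCT, the readers of AGG and AGA.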

How the data were processed

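Per the labels' protocols, tRNA was cut from gels and made into small RNA libraries. DESeq2, featureCounts, STAR and fastp and the build hg38 are listed in the submitters' processing notes, without versions or settings. The deposited tables held, per the file headers, mean normalised counts, a signal of 0 or more, and for each clone against wild type a log2 fold change and a p-value, as the authors computed them. No values per library were used, so the planned count test and replicate alternatives were replaced by the authors' own p-values. Raw depth is therefore unknown here.

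From these, p-values were adjusted by Benjamini-Hochberg over all rows with a p-value, 275, 276 and 282 isodecoder rows and 70, 71 and 74 family rows of the DUS1L, DUS2L and DUS3L tables. Dividing the fold change by the normal quantile that belongs to its p-value gave the SE. Each table was taken to average 3 groups of 3 libraries, and the wild-type level was solved from that mean and the fold changes of both clones. The members and lists were chosen with earlier results of these data known. Named were all 5 families, every arginine isodecoder past the threshold with a mean of at least 10, and the most abundant of each family, besides low or neighbouring isodecoders named after their values were seen. Centring subtracted the median nuclear row, and the spike-in reference the mean of 3 E. coli tRNAs. The arithmetic of levels, SEs and calls was checked on simulated fold changes with normal errors of the recovered SEs. No counts or replicates were simulated, so this says nothing about the noise of the libraries or the authors' p-values. Computation used scipy 1.17.1, pandas 2.3.3 and numpy 2.4.6 in Python 3.11.15, and plots matplotlib 3.10.9.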

Additional observations from a re-analysis of the deposited data

How the results depend on the processing

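Alternatives were a threshold of 0.01 on the adjusted p, a minimum of 1 on the size of the log2 fold change, a minimum mean of 100, centring on the median nuclear row, and the spike-ins as reference. No called value changed sign. Of 148 fold changes of members, 18 changed sign after centring and 14 with the spike-ins, all without passing in either fit. Those that moved by more than their SE were all in DUS2L after centring, Arg-CCT-5-1 of clone #1 (0.64), and Arg-CCG-2-1 (0.20), Arg-CCT-1-1 (0.25) and Arg-CCT-3-1 (0.01) of clone #2. For DUS1L clone #2, 3 arginine isodecoders passed at an adjusted p under 0.01. For DUS2L clone #1 isodecoders, 5 passed after centring. For DUS2L clone #2 isodecoders, 6 passed at an adjusted p under 0.01, 6 after centring and 6 with the spike-ins. For DUS2L clone #1 families, 2 passed at an adjusted p under 0.01, 0 after centring and 2 with the spike-ins, and for clone #2 families 0 passed under each of these 3. For DUS3L clone #2 isodecoders, 0 passed under each of these 3. Centring moves every fold change by the same amount, and the cause of the shift of the nuclear median was not tested. Calls over all rows were not counted under the alternatives, so these counts of arginine calls are not compared with other rows. Every other count of calls stayed within 1.5 times the reported one.

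No paired analysis was possible because the deposited comparisons carry no values per library. For the same reason leaving out single replicates and another normalisation were not run. Low rows such as Arg-TCG-6-1, Arg-TCT-5-1 and Arg-CCT-5-1 rest on few counts in some groups.

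Chosen after the data were seen were the shares of nuclear and arginine counts, the share without Gly-GCC, the wild type of the DUS3L table set beside the DUS2L clones, and the differences between families.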
